A study of Mus musculus with 6 samples.

Results

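Mitochondria take nearly all of their proteins from the cytosol, and the genes described here encode the machinery that brings those proteins in, trims them and folds them. The 34 genes were listed by role, as outer and inner membrane translocases, import motor, processing peptidases and matrix chaperones with their proteases, and where a gene had several probe sets the brightest one on average stood for it. Of the 34, 30 had a probe set annotated to that gene alone, out of 18192 such genes on the array, and 29 were bright enough to be tested, out of 13232. The probe sets annotated to Tomm5, Tomm6 or Dnajc19 each carry a second gene name and are not used here, Immp2l was not analysed here, and Timm9 lay below the filter.

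The cells were bone marrow erythroid progenitors of the mouse sorted as CD71+/Ter-119+, 2 surface markers that erythroblasts carry together. The Rb-null group, 3 arrays, had the genotype EpoR-GFPcre/+ with Rb fl/fl, and the control group, also 3 arrays, had EpoR-GFPcre/+ with Rb fl/+. Both groups therefore carried a Cre at the erythropoietin receptor locus, which acts in cells that use that locus, and both carried at least 1 floxed Rb allele, so that the controls are not wild type. The sources used here give neither age nor sex, nor whether an array holds 1 animal or a pool, so the p-values reflect only how these arrays vary, and that variation may be technical. The series title ties Rb, a protein that restrains entry into S phase, to leaving the cell cycle and to the making of mitochondria, and the comparison asks how the transcripts of the import machinery stood without Rb.

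A precursor protein first meets the TOM complex of the outer membrane, whose receptors hand it to a channel. Proteins with a cleavable presequence then pass the TIM23 channel of the inner membrane and are pulled into the matrix by a motor built on the Hsp70 of mitochondria, cut by a processing peptidase, and folded by the Hsp60 and Hsp10 chaperonin. Carriers of the inner membrane are escorted by small Tim chaperones to the TIM22 complex. In erythroblasts this route carries, among others, enzymes of heme synthesis.

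Median deposited intensity lay between 24.5 and 29.5 on Rb-null arrays and between 23.3 and 31.2 on control arrays. Both arrays numbered 3 stood apart, with a mean 18S ribosomal RNA control signal of 542 (Rb-null) and 1231 (control), against 32.6 to 66.2 on the others. Across all tested genes, arrays of the same number deviated from their group means together (correlations of 0.636, 0.615 and 0.653), so each gene is also given by pair. Rb1 read 4045, 3670 and 2897 on Rb-null arrays 1, 2 and 3, against 2760, 2152 and 1379 on control arrays, so that the floxed gene had more signal in the Rb-null group; the sources used here do not place its probe set inside or outside the deleted stretch, and every direction rests on the labels. Erythroid markers were bright, Tfrc reading 7080 to 8506 on Rb-null arrays and 6086 to 7960 on control arrays. Granulocyte markers were bright too, as given beside the results. Epor, the locus that carries the Cre, split the arrays within each group. It read 248, 2228 and 558 on Rb-null arrays and 2221, 266 and 609 on control arrays, so that Rb-null array 1 and control array 2 were low while Rb-null array 2 and control array 1 were high. All 6 samples have the same Cre genotype in the labels, the gene was singled out after its values were seen, and any bearing of this split on the results was not tested.

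Most import and chaperone genes had lower mean signal in Rb-null cells, and no member passed the test. Of the 29 tested members, 23 had a negative log2 fold change (Rb-null over control) and the median was -0.22, where 54.6% of all tested genes were negative with a median of -0.04. By pair, the median over the members was -0.25, -0.20 and -0.32 for numbers 1, 2 and 3, and 15 members were lower in all 3 pairs while 3 were higher in all 3, against 24.1% and 18.4% of all tested genes. The mean log2 signal over the 29 members was 7.87, 8.05 and 7.81 on Rb-null arrays 1, 2 and 3 and 8.03, 8.28 and 8.09 on control arrays, so the Rb-null array was the lower one of each pair while the groups overlapped. The median was -0.35 without Rb-null replicate 2 and -0.15 without control replicate 2.

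limma called 0 of the 29 members and 0 of all tested genes (0% of 13232) at an adjusted p under 0.05, and every member had an adjusted p = 1.00. At an unadjusted p under 0.05 it had 1 member, Timm8b, on the lower side, where 1.51% of all genes stood, and none on the higher side, where 2.55% did. With the replicate number as a block, limma again called none (lowest adjusted p = 0.136, for Timm8b), and 9 members lower and 1 higher stood at an unadjusted p under 0.05, where 9.14% and 7.77% of all genes did. Adding a variance trend and robust moderation to the block called 1.39% of all genes as lower and 2.18% as higher, and none of the 29 members (lowest adjusted p = 0.0707). After normalization all Rb-null values lay below all control values for 4 members, Timm8b, Timm22, Tomm7 and Pmpca, against 4.78% of all genes, and above them for no member, against 5.13%. In deposited intensity the groups of Timm8b and Tomm7 overlapped, while those of Timm44 did not.

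**Figure D1:**
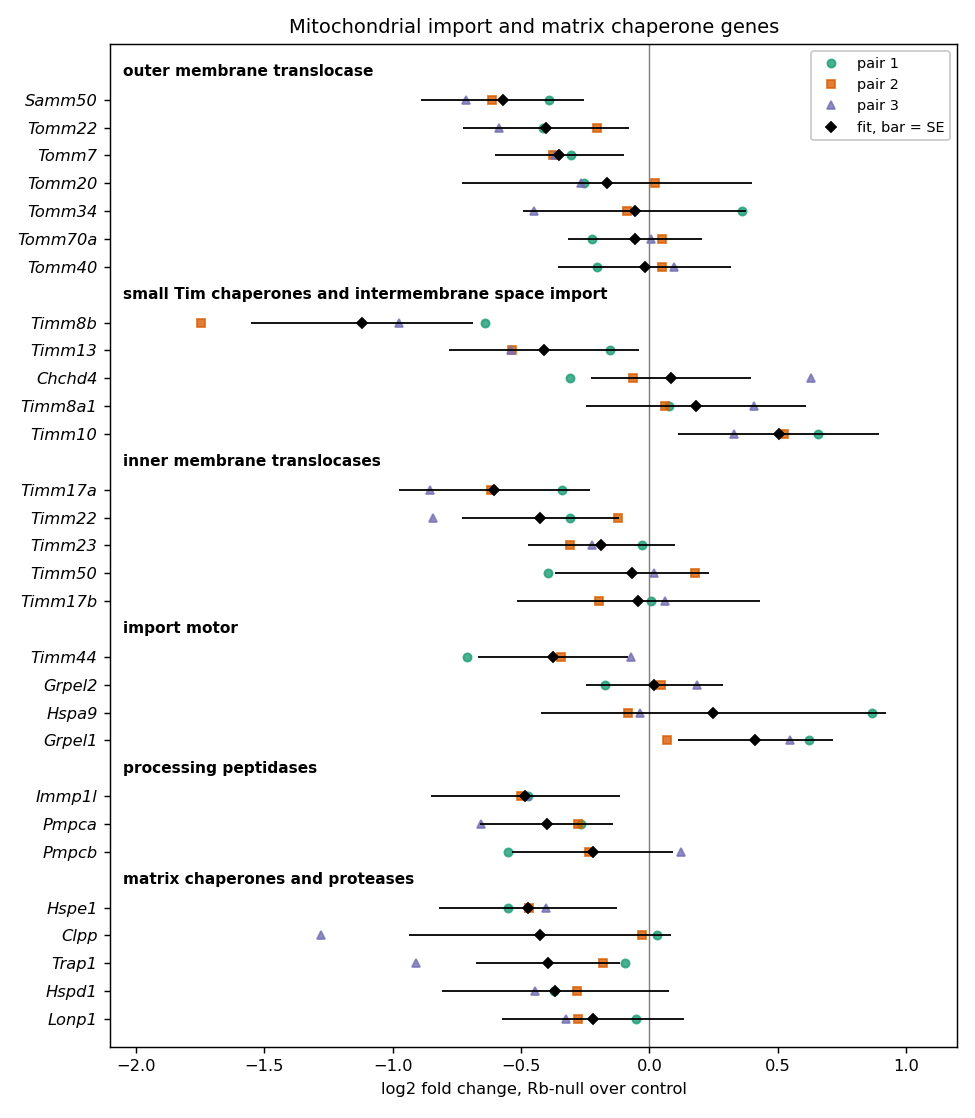
Log2 fold change of Rb-null over control (x axis) for the 29 tested members, grouped by role on the y axis. Black diamonds with bars are the fit and its standard error, and coloured symbols are the differences within the pairs of arrays numbered 1, 2 and 3. Members of the outer membrane, inner membrane, peptidase and matrix chaperone groups lie to the left of 0, and Timm10, Grpel1 and Hspa9 lie to the right.

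The genes listed under the outer membrane were all below 0, from -0.57 for Samm50 to -0.02 for Tomm40. Their median was -0.17 over 7 tested genes, among them the cytosolic cochaperone Tomm34. Samm50, which inserts barrel proteins into the outer membrane, read 223, 381 and 220 on Rb-null arrays 1, 2 and 3, against 286, 581 and 373 on control arrays. Each Rb-null array was lower than the control array of its number, though Rb-null array 2 stood above control arrays 1 and 3, so the groups overlapped. Its log2 fold change was -0.57 (SE 0.32), and its second probe set past the filter gave -0.41 (SE 0.26).

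Tomm7, a small subunit that modulates the assembly of the TOM complex, had a log2 fold change of -0.35 (SE 0.25). It read 493, 611 and 378 on Rb-null arrays and 570, 789 and 500 on control arrays. The pair differences, -0.31, -0.38 and -0.37, lay close together. Its 4 probe sets disagreed, since 3 ranged from -0.85 to -0.32 and the other had 0.29 (SE 0.27). Tomm22, the receptor that docks precursors at the channel, read 425, 444 and 188 on Rb-null arrays and 532, 505 and 291 on control arrays (log2 fold change -0.40, SE 0.32), lower in each pair, and had -0.14 without Rb-null replicate 3 and -0.25 without control replicate 1.

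The presequence receptor Tomm20 read 900, 1225 and 252 on Rb-null arrays and 1003, 1167 and 308 on control arrays. Both arrays numbered 3 were low and the log2 fold change was -0.17 (SE 0.57). It turned to 0.39 without Rb-null replicate 3, to 0.08 without control replicate 1 and to 0.10 without control replicate 2. Of its 6 probe sets 5 were negative and 1, at 0.12 (SE 0.26), was positive. The channel Tomm40, the receptor Tomm70a and the cytosolic cochaperone Tomm34 had -0.02 (SE 0.34), -0.06 (SE 0.26) and -0.06 (SE 0.43). These 3 changed sign when 1 array was left out, over ranges of -0.21 to 0.27, -0.19 to 0.05 and -0.38 to 0.33. The other 2 Tomm70a probe sets past the filter gave -0.74 (SE 0.67) and -0.32 (SE 0.51), both lower in each pair, and the mean over its probe sets gave -0.37.

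The small Tim proteins, which escort hydrophobic precursors across the intermembrane space, did not share a direction. Timm8b, which pairs with Timm13 in such a chaperone, read 33.0, 36.4 and 11.5 on Rb-null arrays 1, 2 and 3, against 63.3, 168 and 35.4 on control arrays. Every Rb-null array was lower than its control, by 0.64, 1.74 and 0.97 on the log2 scale, and Rb-null array 3 was below the filter intensity of 18.9. Its log2 fold change, -1.12 (SE 0.43), was the lowest of the 29 members, and it was -0.66 without control replicate 2 and -0.65 with an offset of 64 in place of 16. Timm13 had -0.41 (SE 0.37), reading 178, 351 and 199 on Rb-null arrays and 198, 513 and 296 on control arrays, and was lower in each pair. Without control replicate 2 Timm13 had -0.15, without Rb-null replicate 1 -0.21 and without control replicate 1 -0.74.

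Timm10, which forms the other main small Tim chaperone with Timm9, stood on the opposite side. It read 442, 317 and 500 on Rb-null arrays and 263, 211 and 395 on control arrays, higher in each pair with overlapping groups. The log2 fold change was 0.50 (SE 0.39), the highest of the 29 members, with pair differences of 0.66, 0.53 and 0.33, and it was 0.23 without control replicate 2, 0.26 without Rb-null replicate 3, 0.76 without Rb-null replicate 2 and 0.83 without control replicate 3. Timm9 itself read 7.21, 22.2 and 9.09 on Rb-null arrays and 15.4, 24.1 and 10.7 on control arrays, below the filter, and was not tested.

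Timm8a1, the mouse counterpart of the human gene mutated in deafness-dystonia syndrome, read 173, 224 and 77.7 on Rb-null arrays and 163, 212 and 55.0 on control arrays. Its log2 fold change was 0.18 (SE 0.43), -0.03 without Rb-null replicate 2 and -0.23 without control replicate 3, and its second probe set gave -0.09 (SE 0.32). Chchd4, the oxidoreductase that traps small cysteine-rich proteins in the intermembrane space, read 203, 178 and 260 on Rb-null arrays and 247, 185 and 163 on control arrays. Only its pair 3 was positive, at 0.63, and without both arrays numbered 3 its log2 fold change of 0.09 (SE 0.31) became -0.19.

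The 5 genes of the inner membrane translocases were all below 0, with a median of -0.19. Timm17a, a subunit of the TIM23 channel, read 178, 216 and 70.2 on Rb-null arrays and 226, 341 and 137 on control arrays. It was lower in each pair, by 0.34, 0.62 and 0.85, with a log2 fold change of -0.60 (SE 0.37), which was -0.27 without Rb-null replicate 3 and -0.39 without control replicate 2. Its close relative Timm17b read 527, 371 and 152 on Rb-null arrays and 486, 423 and 144 on control arrays. The log2 fold change of Timm17b was -0.04 (SE 0.47), it ran from -0.47 to 0.33 as single arrays were left out, and its second probe set had 0.07 (SE 0.31). The difference between both relatives was not tested.

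Timm22, the channel for carrier proteins, read 209, 249 and 205 on Rb-null arrays and 255, 269 and 381 on control arrays, and every Rb-null value was under every control value. Its log2 fold change was -0.42 (SE 0.30), while a second probe set had 0.08 (SE 0.26), the mean over both had -0.17, and the value was -0.15 without control replicate 3. The channel subunit Timm23 had -0.19 (SE 0.29), lower in each pair but 0.003 without control replicate 2. Timm50, the receptor on the inner side of the intermembrane space, read 402, 419 and 454 on Rb-null arrays and 495, 361 and 449 on control arrays, with a log2 fold change of -0.07 (SE 0.30). Its other 2 probe sets past the filter gave 0.40 (SE 0.35) and 0.36 (SE 0.25), so its direction depends on the probe set, and it also changed sign without Rb-null replicate 1 or 2 or control replicate 1 or 3, within a range of -0.28 to 0.05.

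In the import motor 1 of 4 tested genes was below 0, and the median was 0.13. Timm44, which tethers the motor to the channel, read 246, 226 and 277 on Rb-null arrays and 386, 290 and 293 on control arrays, a log2 fold change of -0.38 (SE 0.29), lower in each pair. The deposited intensities did not overlap between the groups, while the normalized ones did. All 3 of its probe sets were negative, from -0.43 to -0.38. The log2 fold change was -0.23 without Rb-null replicate 2 and -0.25 without control replicate 1. Grpel1, the nucleotide exchange factor that resets the motor, read 378, 488 and 292 on Rb-null arrays against 234, 457 and 195 on control arrays. It was higher in each pair, by 0.62, 0.07 and 0.55, with a log2 fold change of 0.41 (SE 0.30). Over all alternatives that value ran from 0.28 to 0.67, the latter without control replicate 2.

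Hspa9, the mitochondrial Hsp70 also called mortalin, read 592, 493 and 1496 on Rb-null arrays and 303, 515 and 1490 on control arrays. Both arrays numbered 3 were high on this probe set and only pair 1 was positive, at 0.87, so the log2 fold change of 0.25 (SE 0.67) became -0.31 without Rb-null replicate 3 and -0.25 without control replicate 1. On its other 3 probe sets past the filter, both arrays numbered 3 were instead the lowest of their group. Those 3 probe sets had 0.75 (SE 0.44), 0.34 (SE 0.50) and 0.14 (SE 0.46), of which the first read 224, 303 and 108 on Rb-null arrays and 114, 229 and 47.5 on control arrays, higher in each pair. Grpel2, a second exchange factor, read 105, 87.8 and 86.9 on Rb-null arrays and 123, 83.2 and 74.8 on control arrays, and had a log2 fold change of 0.02 (SE 0.27). It ran from -0.09 to 0.16 as single arrays were left out, so Grpel2 had no stable sign.

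**Figure D2:**
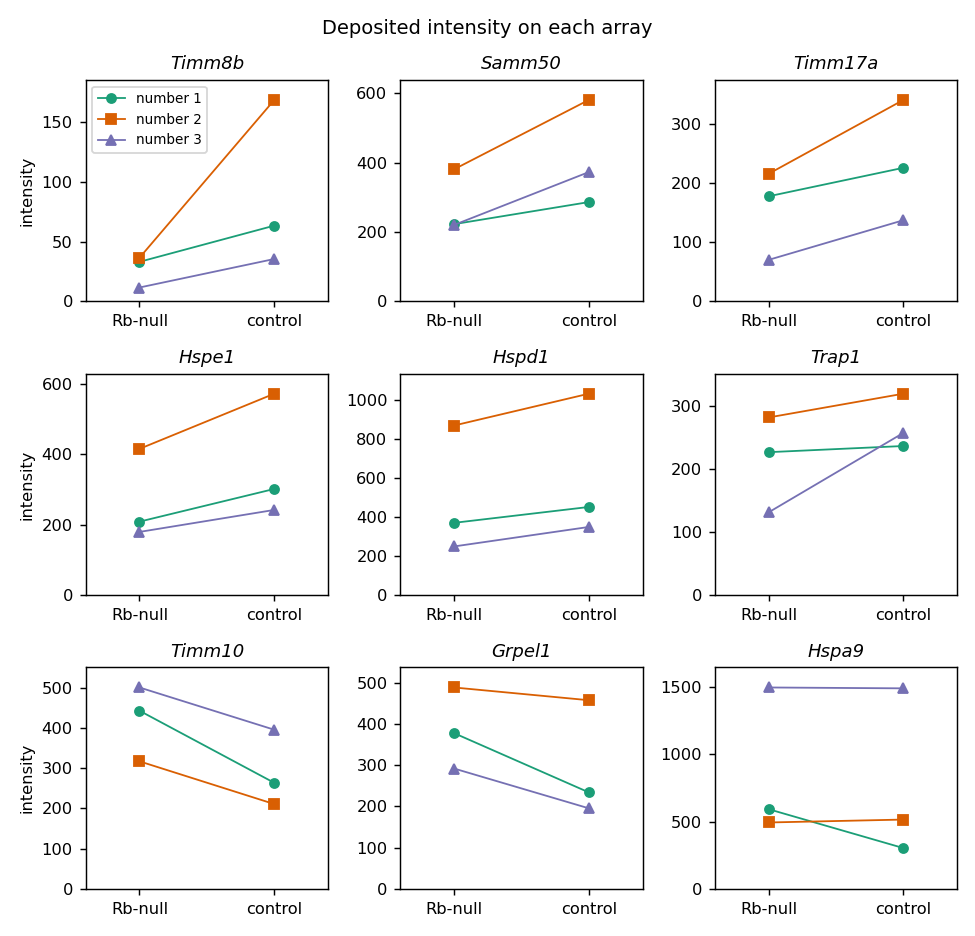
Deposited intensity (y axis, linear, from 0) of 9 members on each array, Rb-null left of control, with a line joining arrays of the same number. Timm8b, Samm50, Timm17a, Hspe1, Hspd1 and Trap1 are lower on the Rb-null array of each pair, Timm10 and Grpel1 are higher, and Hspa9 is high on both arrays numbered 3.

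The peptidases that remove targeting signals were below 0 in the 3 tested genes. Pmpca, the subunit of the matrix processing peptidase that binds presequences, read 230, 208 and 170 on Rb-null arrays and 269, 252 and 279 on control arrays. All 3 Rb-null values lay below all 3 control values, and the means were 202 ± 30.0 in Rb-null cells and 267 ± 13.5 in control cells (SD, n = 3 each), a log2 fold change of -0.40 (SE 0.26). Its partner Pmpcb, the catalytic subunit, had -0.22 (SE 0.32), reading 50.4, 104 and 62.4 on Rb-null arrays and 84.7, 125 and 56.5 on control arrays. Pair 3 of Pmpcb went the other way, a second probe set had 0.10 (SE 0.74), and the value was -0.01 without Rb-null replicate 1 and -0.03 without control replicate 2. Immp1l, part of the inner membrane peptidase, read 162, 172 and 66.3 on Rb-null arrays and 228, 250 and 97.7 on control arrays. Its pair differences of -0.47, -0.50 and -0.48 were nearly equal, although the arrays numbered 3 were low in both groups (log2 fold change -0.48, SE 0.37). Without Rb-null replicate 3 Immp1l had -0.19, and without control replicate 3 it had -0.78.

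All 5 matrix chaperones and proteases were below 0, with a median of -0.40. Hspd1 and Hspe1, which form the Hsp60 and Hsp10 chaperonin that folds imported proteins, had much the same pattern over the arrays. Hspd1 read 371, 870 and 250 on Rb-null arrays and 452, 1034 and 350 on control arrays. Hspe1 read 209, 416 and 180 on Rb-null arrays and 302, 573 and 242 on control arrays. In deposited intensity the arrays numbered 2 were the highest of each group for both genes and those numbered 3 the lowest. After normalization Hspe1 stood at log2 7.82 on Rb-null array 3, above 7.74 on Rb-null array 1. On both scales the Rb-null array was the lower one in each pair for both genes.

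The log2 fold changes were -0.37 (SE 0.44) for Hspd1 and -0.47 (SE 0.34) for Hspe1, with pair differences of -0.37, -0.28 and -0.45 and of -0.55, -0.47 and -0.40. The second Hspe1 probe set had -0.46 (SE 0.44). These SEs take in the spread between pairs, and with the replicate block they were 0.14 for Hspd1 and 0.14 for Hspe1 (limma adjusted p = 0.289 and 0.218). Without control replicate 2 the log2 fold change was -0.01 for Hspd1 and -0.21 for Hspe1, and without Rb-null replicate 2 it was -0.77 for Hspd1 and -0.73 for Hspe1. Hspd1 also had -0.10 without Rb-null replicate 3.

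Hspd1 and Hspe1 lie head to head on chromosome 1, and the bases between their starts are shown because both genes are read from this stretch in opposite directions. It covers chr1:55087933-55088147 of GRCm38.p6, 215 bases on the plus strand, along which Hspe1 is read, from the RefSeq promoter table. RefSeq also gives a second Hspd1 start farther along, inside the first part of Hspe1, so the stretch is transcribed in that form. The capitals mark 2 overlapping matches, 1 on each strand, to a heat shock element of 3 units, TTC and GAA in alternation with any 2 bases between them.
Hspd1 to Hspe1: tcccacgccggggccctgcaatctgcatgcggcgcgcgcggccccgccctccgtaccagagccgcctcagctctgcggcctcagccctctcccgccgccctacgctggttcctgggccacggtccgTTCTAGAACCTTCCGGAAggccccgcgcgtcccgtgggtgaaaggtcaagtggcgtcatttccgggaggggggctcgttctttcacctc

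Searched on both strands in windows from 250 bases before to 50 bases after each RefSeq start, this element was present for 3 of the 31 listed genes with a window, Hspd1, Hspe1 and Timm9, and for 0.573% of the 10639 tested genes with one. Hspd1 and Hspe1 share the same copy. The palindromic motif of NRF-1, a regulator of nuclear genes for mitochondria, was in the windows of Timm8b, Tomm20, Hspd1 and Chchd4, 4 of 31 against 10.1% of tested genes. The CCGGAAGT motif of GABP was in those of Timm10, Timm23, Tomm70a and Pmpcb, again 4 of 31 against 7.89%. The TGATGCAAT motif of CHOP and ATF4 was in none of the 31 and in 0.16% of tested genes. The other motifs searched were the E-box of Myc, CACGTG (6 of 31, against 10.9% of tested genes), that of YY1, AAGATGGCG (2, against 3.19%), the cAMP response element TGACGTCA (1, against 3.23%), and 2 forms of the E2F motif, TTTGGCGC (0, against 1.06%) and TTTCCCGC (2, against 2.19%). E2F is the family of factors that Rb binds. The 31 include Timm9 and Dnajc19, which were not tested, so shares over all 27025 genes with a window are given too. Those were 0.662% for the heat shock element, 5.19% for NRF-1, 4.31% for GABP and 0.222% for CHOP and ATF4. They were 8.09% for the E-box, 1.64% for YY1, 2.03% for the cAMP response element, and 0.585% and 1.24% for the E2F forms. All were searched on both strands, and these are matches of letters and not binding sites.

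Timm8b shares a head-to-head start in the same way with Sdhd, which encodes a membrane subunit of succinate dehydrogenase, and only 51 bases separate them. They are shown, with no capitals, because the genes on either side had opposite signs. The stretch is chr9:50603850-50603900 of GRCm38.p6 on the plus strand, along which Timm8b is read.
Sdhd to Timm8b: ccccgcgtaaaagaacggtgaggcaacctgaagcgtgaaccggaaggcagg

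Sdhd read 369, 373 and 535 on Rb-null arrays and 384, 336 and 384 on control arrays, with a log2 fold change of 0.14 (SE 0.32), beside -1.12 (SE 0.43) for Timm8b. In all, 13 of the 34 genes had the start of another gene facing away within 500 bases, and for 9 such gene pairs both genes were tested. The log2 fold changes had the same sign in 5 of these 9, among them Hspd1 with Hspe1 and Immp1l with Elp4, and opposite signs in 4, namely Timm8b with Sdhd, Pmpca with Entr1, Timm17b with Pqbp1 and Lonp1 with Catsperd. Several of these values were smaller than their SE. On the same-sign side Parg, the partner of Timm23, had -0.09 (SE 0.45), and on the other Catsperd had 0.04 (SE 0.36). No share over other head-to-head genes was taken, and a shared direction was not tested.

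Trap1, the Hsp90 of the matrix, read 227, 282 and 131 on Rb-null arrays and 236, 319 and 257 on control arrays. It was lower in each pair, but by 0.91 in pair 3 and by 0.10 and 0.18 in pairs 1 and 2, so much of its log2 fold change of -0.40 (SE 0.28) came from the arrays numbered 3, and without both it was -0.14 (-0.21 without Rb-null replicate 3 alone). The protease subunit Clpp read 147, 149 and 186 on Rb-null arrays and 145, 151 and 480 on control arrays. Its log2 fold change of -0.43 (SE 0.51) became 0.20 without control replicate 3. The second Clpp probe set, dimmer, gave -0.33 (SE 0.32) and was lower in each pair, by 0.44, 0.44 and 0.11, so there pair 3 had the smallest difference. Lonp1, the protease that clears damaged matrix proteins, read 335, 332 and 447 on Rb-null arrays and 333, 402 and 566 on control arrays. The Lonp1 log2 fold change of -0.22 (SE 0.35) became 0.08 without control replicate 3.

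**Figure D3:**
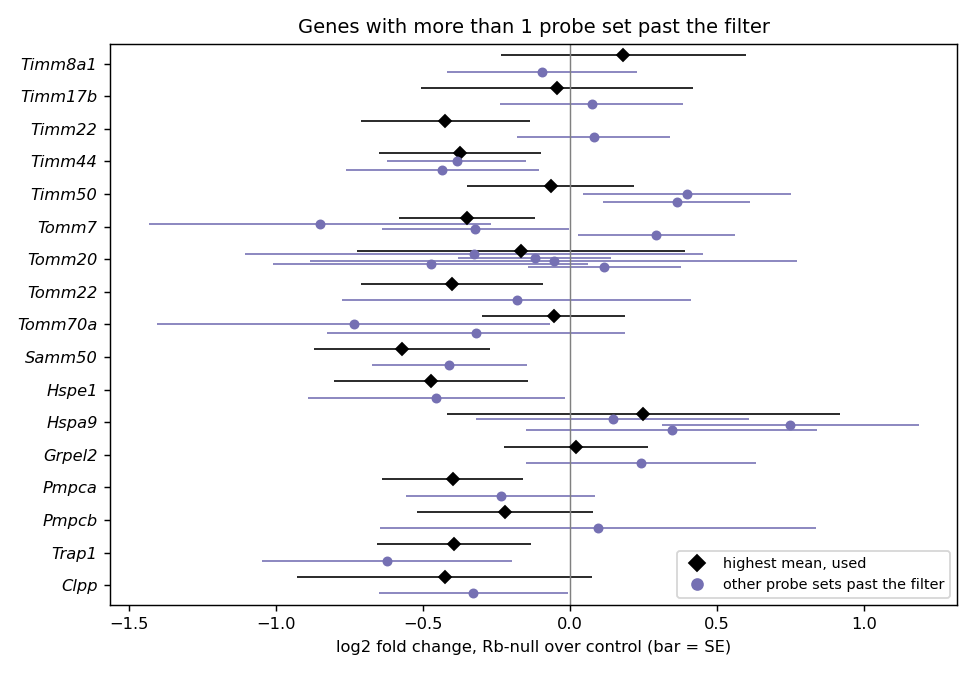
Log2 fold change of Rb-null over control (x axis, bars are standard errors) of every probe set past the filter for the 17 members with more than 1. Black diamonds are the probe sets with the highest mean and purple circles the others. All probe sets of Timm44, Samm50, Hspe1, Pmpca, Trap1 and Clpp lie below 0 and all of Hspa9 above it, while those of Timm50 and Tomm7 fall on both sides.

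Agreement between probe sets varied among members. Among the 17 members for which several probe sets passed the filter, 8 had only negative log2 fold changes, 2 (Hspa9 and Grpel2) only positive ones, and 7 had both signs, Timm8a1, Timm17b, Timm22, Timm50, Tomm7, Tomm20 and Pmpcb. Over all 57 member probe sets past the filter, 40 were negative.

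Other genes of import and quality control stood about where the members did. Of 33 listed genes 30 were tested, 20 of them negative, with a median of -0.20, and limma called 0 (2 at an unadjusted p under 0.05, both lower, and 7 with the block, all lower). Adding a variance trend and robust moderation to the block called 2, both lower, where 1.39% of all tested genes were called lower. Romo1, a small inner membrane protein, read 296, 428 and 173 on Rb-null arrays and 468, 756 and 403 on control arrays, a log2 fold change of -0.90 (SE 0.31). Phb2, a prohibitin that scaffolds inner membrane proteases, had -0.63 (SE 0.27), the cristae protein Chchd3 -0.64 (SE 0.50) and the protease Spg7 -0.44 (SE 0.32). Spg7 was not lower in each pair, with differences of 0.18, -0.28 and -1.23 in pairs 1, 2 and 3. The median of this list was -0.08 without control replicate 2, -0.11 without Rb-null replicate 3 and -0.31 without control replicate 3.

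Set beside other mitochondrial genes, the members' median of -0.22 was nearer 0 than that of the mitochondrial ribosome (-0.33, with 66 of 76 tested genes negative) and that of complex I subunits (-0.64, with 33 of 33 negative). These differences were not tested. The ribosome and complex I lists were taken by gene symbol, so that Ndufa4 (-0.19) counts as complex I by its name alone. With the block, a variance trend and robust moderation, limma called 11 of the 33 complex I genes and 4 of the 76 ribosome genes, all lower. It called 0 of the 29 import genes, near the 1.39% of all tested genes called lower. The Rb-null array was the lower one in all 3 pairs for 15 of the 29 import genes. The same held for 45 of the 76 ribosome genes and 31 of the 33 complex I genes. The share over all tested genes was 24.1%.

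Chaperones of the cytosol were split. Of 17 tested, 10 were negative and the median was -0.15, yet 5 had groups that did not overlap with Rb-null higher, against 5.13% of all genes. Dnajb1, an Hsp40, read 3428, 2914 and 2211 on Rb-null arrays and 1468, 1339 and 737 on control arrays (log2 fold change 1.26, SE 0.32, limma adjusted p = 0.557). Hsp90aa1 had 0.94 (SE 0.36), Dnaja1 1.10 (SE 0.41) and Hspa8, the constitutive Hsp70, 0.66 (SE 0.31), while the chaperonin subunits Cct2, Cct3, Cct4, Cct5, Cct7, Cct8 and Tcp1 had -0.44 to -0.15 and Cct6a had 0.03. Hspd1 and Hspe1 thus had the sign of 7 of the 8 cytosolic chaperonin genes tested and the opposite sign to Dnajb1 and Hsp90aa1. None of these genes passed limma without the block. With the block, a variance trend and robust moderation, limma called 4 of the 17, all higher, where 2.18% of all tested genes were called higher. They were Dnajb1 (limma adjusted p = 0.0111), Hspa8 (0.0332), Dnaja1 (0.0367) and Hsp90aa1 (0.0488).

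Hspd1, Hspe1, Hspa9, Trap1, Clpp and Lonp1 are also among the genes used to follow the mitochondrial unfolded protein response of mammals, and 7 regulators reported upstream of it were listed too. All 6 tested of the 7 listed had positive log2 fold changes, with a median of 0.67, in all 3 pairs each. Atf5 read 221, 483 and 120 on Rb-null arrays and 54.2, 120 and 93.0 on control arrays (log2 fold change 1.31, SE 0.44, limma adjusted p = 0.951). Ddit3, which encodes CHOP, had 2.15 (SE 0.26, limma adjusted p = 0.132). The list was chosen with the Ddit3 result known. None of the 6 passed limma without the block. With the block, a variance trend and robust moderation, limma called 2 as higher, where 2.18% of all tested genes were called higher. They were Ddit3 (limma adjusted p = 0.0110) and Atf4 (0.0450, log2 fold change 0.60), and not Atf5 (0.0751). Of the response genes named, Hspa9 had a positive log2 fold change and the other 5 negative ones. Those of Clpp and Lonp1 on the probe sets used were positive without control replicate 3. That of Hspd1 was -0.01 without control replicate 2. Hspa9, positive in pair 1 alone on the probe set used, was negative without Rb-null replicate 3 or control replicate 1. All 4 Hspa9 probe sets past the filter were positive with every array in.

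**Figure D4:**
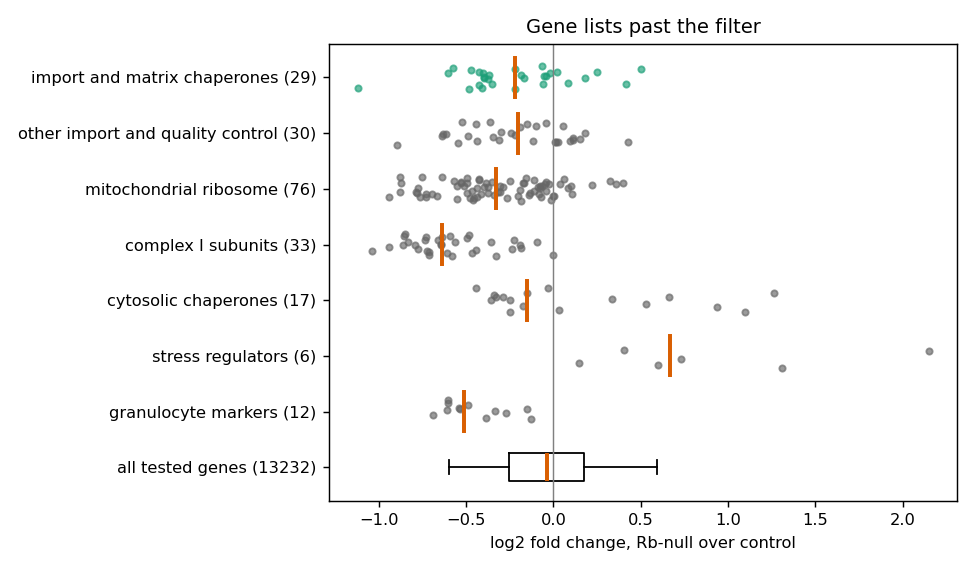
Log2 fold change of Rb-null over control (x axis) for each tested gene of 7 lists, with the number of genes in brackets. Points are genes, orange lines are medians, and the box for all tested genes spans the quartiles with whiskers to the 5th and 95th percentiles. The import and chaperone genes have a median of -0.22, between all tested genes at -0.04 and complex I subunits at -0.64, and the stress regulators lie on the other side at 0.67.

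Markers of granulocytes were on the same side as the import genes. All 12 tested of the 16 listed had negative log2 fold changes, with a median of -0.51, and their summed intensity ranged from 26606 to 53255 on Rb-null arrays and from 35897 to 53023 on control arrays. No marker of this or the next lists was at 0 on any array. By pair, their median was -0.81, -0.01 and -0.64, beside -0.25, -0.20 and -0.32 for the import genes. In pair 2 the single granulocyte markers ran both ways, from -0.48 for Fcnb to 0.46 for Mmp8. In pairs 1, 2 and 3 the median was -0.37, -0.20 and -0.57 for markers of B cells. It was -0.28, 0.05 and -0.86 for those of macrophages. By pair, markers of T and NK cells had -0.36, 0.18 and -0.10, and those of megakaryocytes -0.04, 0.07 and -0.40. Markers of macrophages had a median of -0.33 (9 of 11 negative), with sums of 1483 to 1891 on Rb-null arrays and 1838 to 3022 on control arrays, and markers of B cells -0.31 (7 of 8 negative), with sums of 322 to 495 on Rb-null arrays and 531 to 873 on control arrays. Markers of T and NK cells had -0.08 (3 of 5 negative) and those of megakaryocytes -0.24 (4 of 5 negative). Tested erythroid markers had 0.05 (2 of 8 negative), with sums of 39589 to 46385 on Rb-null arrays and 38802 to 41085 on control arrays. On Rb-null arrays 1, 2 and 3 the actin control had a ratio of 3' to 5' signal of 1.43, 1.10 and 1.01, against 1.67, 1.15 and 1.18 on control arrays. This actin ratio was lower on the Rb-null array in each pair. The same ratio for Gapdh was 1.17, 1.38 and 0.737 on Rb-null arrays and 1.16, 1.34 and 0.948 on control arrays, so it was lower on the Rb-null array in pair 3 alone. The part of these cells and of RNA quality in the lower signal was not tested, and in sorted bulk samples fewer cells of a type and less RNA per cell cannot be told apart.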

How the data were processed

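Total RNA of 6 samples was taken up in Trizol, cleaned on QIAGEN columns and given a biotin label, per the labels' protocols. The authors deposited 1 linear intensity per probe set and array. The sources used here do not give the method of summary or scaling. All 6 columns were used.

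Of 45101 probe sets, 64 controls, 4 empty ones and 1 with a value above the range of the scanner were left out. Of the other 45032, 34941 carried 1 gene symbol in GEO's platform annotation, 932 several and 9159 none. Array medians of log2(intensity + 16) differed by up to 0.264, so the arrays were brought to common quantiles. The filter kept probe sets averaging over log2 5.12, the 40th percentile (18.9 in intensity), with the highest-mean probe set per gene. Fold changes are on the log2(intensity + 16) scale, which understates those of dim genes. Other probe sets of a gene were fitted over all probe sets, so their SEs come from a slightly different moderation. Intensities of different genes were not compared.

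The comparison of Rb-null with control used limma 3.58.1 under R 4.3.3 (2-sided moderated test, Benjamini-Hochberg over 13232 genes, threshold 0.05), without the replicate block. The numbers pair the arrays by their deviations (correlations 0.636, 0.615 and 0.653, at most 0.0370 with another number), not by a statement in the labels. An exact permutation test of 3 against 3 cannot go below p = 0.1 and was not used. In 10 simulated data sets built from these arrays, limma recovered 4% of 4-fold and 0% of 2-fold changes without the block. With the block it recovered 56.4% and 2.9%. The absence of calls therefore says little about changes of 4-fold or less without the block, and little about 2-fold ones with it.

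The members and lists were chosen with earlier results of these data known. Values by array are given for the 12 members with the smallest p, those above 0 and those whose probe sets disagree, and beyond that rule for Tomm22, Timm13, Hspd1, Clpp and Lonp1, Timm9, Sdhd and Epor. From the other lists of import and chaperone genes up to 4 are named by smallest p, and beyond that rule the cytosolic chaperonin subunits. Promoter windows are RefSeq's for GRCm38.p6. Alternatives covered scaling, offset, filter, probe set, replicate block, array weights, variance model and arrays left out.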

Additional observations from a re-analysis of the deposited data

How the results depend on the processing

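Of the 29 tested members, 16 kept their sign under all 17 alternatives and 13 changed it under at least 1, and none passed limma under any of them. Over all genes, limma called 0 in most settings, but 2 with an offset of 64, 3 with array weights and 473 with a variance trend, robust moderation and the replicate block together (184 lower and 289 higher); with 1 array left out it called 0 each time. The replicate block alone changed no call (0 genes, 0 members).

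The members' median ran from -0.35 to -0.15 as single arrays were left out. That of the other import genes ran from -0.31 to -0.078, and was -0.18 on the deposited scaling, -0.18 with median centring, -0.17 with an offset of 64, -0.17 without the filter and -0.24 without both arrays numbered 3. With probe sets averaged, Timm17b had 0.014 and Timm50 0.23. With array weights Tomm34 had 0.070, Grpel2 -0.030 and Chchd4 -0.11. Without both arrays numbered 3, Tomm34 had 0.14, Grpel2 -0.062, Chchd4 -0.19 and Clpp 7.4e-05. With single arrays left out the ranges were -0.23 to 0.48 for Timm8a1, -0.47 to 0.33 for Timm17b, -0.34 to 0.0027 for Timm23, -0.28 to 0.052 for Timm50, -0.67 to 0.39 for Tomm20, -0.38 to 0.33 for Tomm34, -0.21 to 0.27 for Tomm40, -0.19 to 0.049 for Tomm70a, -0.31 to 0.96 for Hspa9, -0.088 to 0.16 for Grpel2, -0.16 to 0.27 for Chchd4, -0.74 to 0.20 for Clpp and -0.46 to 0.079 for Lonp1. Beyond the smaller number of arrays, the cause was not tested. The number of arrays limits every value, and low signal limits Timm8b and Timm9.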
